A study of Sus scrofa with 33 samples.

Results

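The insulin-like growth factor (IGF) genes were examined in the pituitary gland of growing pigs. Members were all array probes whose gene name, or gene symbol in the probe description, was IGF1, IGF2, IGF1R, IGF2R, IGFBP2, IGFBP3, IGFBP4, IGFBP5, IGFBP6 or IGFBP7. That gave 10 of the 11758 genes named on the array, with 40 of its 60305 probes: 4 for IGF1, 8 for IGF2, 3 for IGF1R, 5 for IGF2R, 4 for IGFBP2, 2 for IGFBP3, 3 for IGFBP4, 2 for IGFBP5, 4 for IGFBP6 and 5 for IGFBP7. The study asked how pigs of 3 genetic groups, Large White (LW), Creole (CR) and their F1 cross, respond to a heat exposure of a few days. All animals were castrated males. There were 5 LW, 5 CR and 6 F1 pigs in thermoneutral conditions (TN, labelled 24 °C) and 6 LW, 6 CR and 5 F1 pigs after heat (HS, labelled 30 °C), with 1 array of 1 colour for each animal. The series' design text and the study's methods give a higher temperature for HS than the labels do. By the study's methods the TN pigs were slaughtered before the temperature rose and the HS pigs after it, so slaughter day and age cannot be told apart from temperature. Each breed was made up of 3 blocks of 4 littermates, and each block was spread over the temperatures. Litters thus lie within breeds, the labels do not name them, and the breed tests here count littermates as independent animals. The array labelled LW HS 3 is titled Large White, but its breed field names Creole. It was kept as LW.

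IGF1 and IGF2 are small secreted growth factors that resemble insulin. IGF1 is the main mediator of growth hormone, and it acts back on the pituitary to restrain the secretion of that hormone. IGF1R, a tyrosine kinase, carries the signal of both ligands into the cell, whereas IGF2R, which also transports lysosomal enzymes that carry mannose 6-phosphate, removes IGF2 from the cell surface. The IGF binding proteins hold the ligands outside the cell, which lengthens their life and limits or directs their access to the receptor. IGFBP7 binds IGFs weakly and is abundant around blood vessels.

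The probes are 60 bases long, and their sequences show which of them are independent readings of a gene. The IGF2 probes A_72_P544532 and A_72_P414438 carry the same bases, and they were the IGF2 probes that passed the test between breeds. Another pair, A_72_P537638 and A_72_P537644, which did not pass, shares 38 bases, in capitals below. The next sequences are of an IGFBP5 probe and of the IGFBP6 probe on which results rest. The last pair carries the IGFBP7 gene name, and the capitals mark 20 bases that O10536 holds as the reverse complement of those in A_72_P680993, so these probes read opposite strands. Each forward sequence printed here had at least 1 reading frame without a stop codon. Since this held for both probes of the last pair, it does not tell which strand a probe reads.
IGF2 A_72_P544532: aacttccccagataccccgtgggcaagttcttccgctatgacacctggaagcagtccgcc
IGF2 A_72_P537638: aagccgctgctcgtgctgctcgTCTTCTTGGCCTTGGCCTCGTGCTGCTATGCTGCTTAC
IGF2 A_72_P537644: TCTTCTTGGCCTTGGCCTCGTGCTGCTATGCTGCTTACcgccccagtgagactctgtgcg
IGFBP5 A_72_P146706: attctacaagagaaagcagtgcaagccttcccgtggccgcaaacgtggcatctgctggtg
IGFBP6 O9305: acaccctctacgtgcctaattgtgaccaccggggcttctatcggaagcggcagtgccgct
IGFBP7 A_72_P680993: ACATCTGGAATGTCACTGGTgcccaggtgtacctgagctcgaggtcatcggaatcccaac
IGFBP7 O10536: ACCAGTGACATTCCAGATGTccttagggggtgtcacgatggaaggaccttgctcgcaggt

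Other probes of a gene overlap too. Among the IGFBP2 probes, A_72_P634395, A_72_P178161 and A_72_P265302 share 51 to 54 bases with each other, and the IGFBP3 probes O12810 and A_72_P165666 share 30. The IGF2R probe O10348 has the same 60 bases as A_72_P513762, a probe the array names M6P/IGF2R. The IGFBP7 probe A_72_P268919 has the same bases as A_72_P760786, which the array names POLR2B, and POLR2B, a subunit of RNA polymerase II, is the gene next to IGFBP7 in RefSeq's pig annotation. It is called the IGFBP7/POLR2B probe from here on.

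Values are log2 of quantile-normalized intensity, and differences are log2 differences from limma fits over all 33 arrays. Probes entered the tests if, in 1 or more of the 6 groups, 75% or more of the arrays had them well above the local background. Of the members, 37 were kept, and each of these was well above background on all 33 arrays. The IGF1 probes A_72_P185381 and A_72_P306168 (well above background on 18 and 1 arrays) and the IGFBP4 probe O5921 (on 0 arrays) were not kept. In whole tissue, fewer cells of a type and less RNA per cell cannot be told apart. The median intensity of an array lay between 131 and 165 over a local background of 20 to 47.5, and 0 gene spots were saturated. The growth hormone gene GH1, which defines the somatotrophs of the anterior lobe, had the 7th highest mean of all kept probes, and of the 7 posterior lobe markers looked up, 3 were kept. These were GFAP, an astrocyte gene (mean 6.16 over the arrays), and AVP and OXT, hormones that hypothalamic neurons make and release in the posterior lobe (means 16.99 and 15.67). The methods describe anterior lobe tissue. The mean of the 3 markers ran from 12.71 to 13.41 over the arrays, 0 of them passed in any comparison, and their part in the results was not tested.

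On 2 TN arrays, LW TN 2 and CR TN 1, the tissue stood apart from the other 31. Both lay above all the others for 6 of 8 endothelial markers (CLDN5, ENG, PECAM1, PLVAP, TEK and VWF) and 4 of 9 folliculostellate and stem cell markers (ANXA1, S100B, SOX9 and VIM), of which 1 other, KRT18, lay below all the others. Both lay below all the others for 5 of 12 markers of the hormone cells other than somatotrophs (FSHB, LHB, NR5A1, PRLR and TSHB). The mean level of the endothelial list was 11.83 on LW TN 2 and 11.39 on CR TN 1, against 10.17 to 10.95 on the other 31 arrays. The mean level of the list for other hormone cells was 12.69 and 12.73, against 13.52 to 13.83. Of the 37 member probes, 13 were higher on both arrays than on any other: all 4 of IGFBP2, both kept ones of IGFBP4, all 4 of IGFBP6 and 3 of IGFBP7. Over all kept probes that share was 5.67%. Both arrays were on the same slide, so results are also given without them.

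In the comparison of LW with CR pigs, IGFBP5 was higher in LW, and IGF2 was lower on 2 of its probes. With a Benjamini-Hochberg adjusted p under 0.05 in limma, 4 of the 37 probes were called, 2 higher and 2 lower in LW, where 6.53% of all kept probes were called (3.53% higher and 2.99% lower). Both IGFBP5 probes passed, and the IGF2 calls are those of the 2 probes with the same bases. The median difference over the members was -0.11, against -0.00 over all kept probes. In F1 against LW, 2 of 37 were called (1.43% of all kept probes, 0.901% lower), IGFBP5 and IGF2R, both lower in F1. In F1 against CR, 2 of 37 were called (6.66% of all kept probes, 3.31% lower), IGFBP6 and the IGFBP7/POLR2B probe, both lower in F1. This last count depended on the processing: it was 0 with processed intensity, 6 and 7 with slide as a random or fixed block, and 1 to 5 with 1 array left out, a change of over 1.5 times for 25 of the 33 arrays. The probes added by the slide as a random block were IGFBP6 A_72_P442649 and A_72_P710138 and IGFBP7 A_72_P422899 and A_72_P588456, and the fixed block also added IGFBP6 A_72_P088481, all lower in F1. At an unadjusted p under 0.05, 15 of 37 differed between F1 and CR, 14 of them lower in F1, where 21.5% of all kept probes reached that level, and the median difference of the members was -0.18 against 0.01 over all kept probes. In F1 against the mean of its parental breeds, 2 of 37 were called (2.75% of all kept probes, 1.71% lower), IGF2R and the IGFBP7/POLR2B probe, both lower in F1. With 1 array left out, the counts were 2 to 7 for LW against CR, 0 to 3 for F1 against LW and 0 to 2 against the parental mean. They changed by over 1.5 times for 7, 8 and 6 of the 33 arrays. These breed comparisons share arrays with each other. In HS against TN, 0 of 37 were called (0.0191% of all kept probes).

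**Figure D1:**
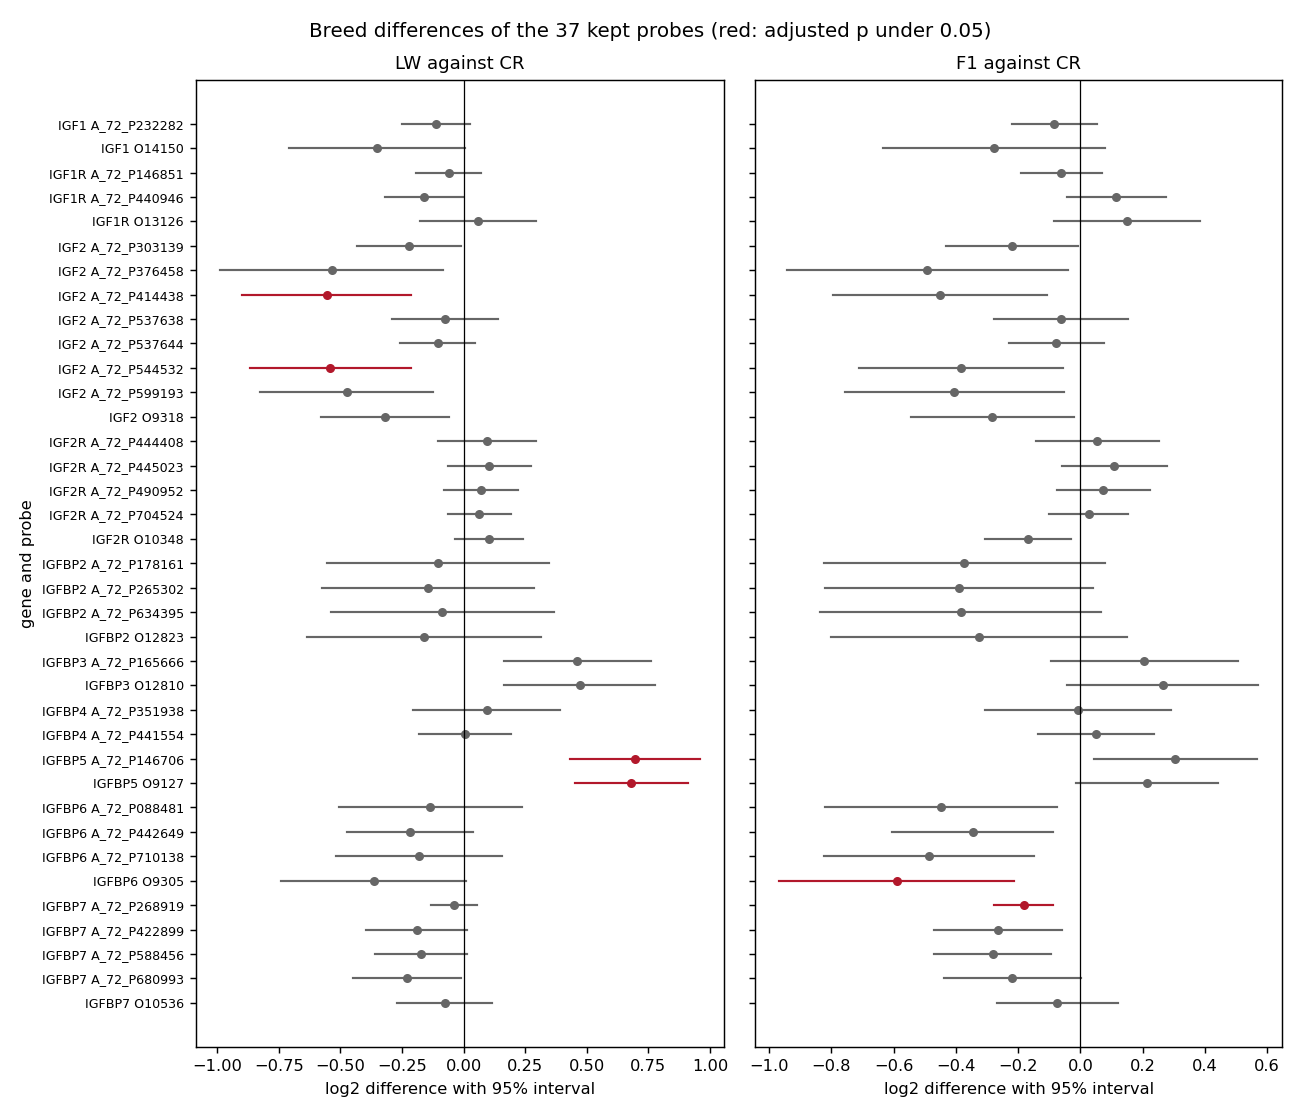
Log2 difference of each of the 37 kept probes between LW and CR (left) and between F1 and CR (right), as a point with its 95% interval from limma, with gene and probe on the vertical axis. Red marks an adjusted p under 0.05, which the IGFBP5 probes and 2 IGF2 probes reached on the left, and IGFBP6 O9305 and the IGFBP7/POLR2B probe A_72_P268919 on the right.

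The ligand IGF1 had O14150 as its brightest probe. In LW TN pigs its values were 9.58, 9.98, 10.66, 10.73 and 10.76, and in LW HS pigs they ran from 10.21 to 10.88 around a median of 10.52. In CR TN pigs they were 9.87, 10.82, 10.91, 11.01 and 11.07, and in CR HS pigs they ran from 10.19 to 11.23 (median 11.10). In F1 TN pigs the range was 9.98 to 10.90 (median 10.74), and F1 HS pigs had 9.76, 10.01, 10.38, 10.84 and 10.88. Each group thus held both low and high animals, and the breeds overlapped widely. The slide, the glass carrier on which several arrays were hybridised together, moved with this split: values were 9.98 to 10.27 on slide 1 (3 arrays) and 9.58 to 10.38 on slide 2 (7 arrays), against 10.29 to 11.23 on slides 3 to 5 (23 arrays). With slide added to the limma fit, its F-test had an adjusted p under 0.05 for 10 of 37 member probes and 14.6% of all kept probes. Besides O14150 these were probes of IGF2, IGFBP2, IGFBP4, IGFBP6 (O9305 among them) and IGFBP7 (A_72_P422899 among them). For O14150 the difference between LW and CR was -0.35 ± 0.17 (SE; adjusted p = 0.279), with 10 of 11 LW arrays below the CR mean. With slide as a fixed block it was -0.34 with an adjusted p of 0.00441, and it was negative within 5 of 5 slides (-0.50 to -0.13). The temperature difference was 0.01 ± 0.14 (adjusted p = 0.993). The other kept IGF1 probe, A_72_P232282, correlated with O14150 at only r = 0.29 after group means were removed, over 33 arrays, and differed by -0.11 ± 0.07 between LW and CR (adjusted p = 0.397).

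The ligand IGF2, which drives fetal growth and is expressed from the paternal copy in most tissues, was lower in LW than in CR on A_72_P544532. Its values in LW TN pigs were 6.62, 6.89, 6.98, 7.17 and 7.81, and in LW HS pigs 6.33 to 7.42 (median 7.01). In CR TN pigs they were 7.13, 7.50, 7.60, 7.67 and 7.70, and in CR HS pigs 7.01 to 7.90 (median 7.63). Most LW pigs lay below most CR pigs, but the ranges overlapped, and the 1 LW array above the CR mean was LW TN 2. F1 pigs spread over both, with 6.40 to 7.95 (median 7.13) in TN and 6.75, 6.83, 7.09, 7.21 and 7.43 in HS. The LW minus CR difference was -0.54 ± 0.16 (a fold of 0.687, adjusted p = 0.0355), and 10 of 11 LW arrays lay below the CR mean. It was -0.42 in TN and -0.64 in HS, and negative within 5 of 5 slides (-1.19 to -0.10). On the probe with the same bases, A_72_P414438, LW TN pigs had 6.89, 7.001, 7.17, 7.37 and 7.86, and LW HS pigs ran from 6.48 to 7.58 (median 7.16). CR TN pigs had 7.32, 7.47, 7.77, 7.81 and 7.98, CR HS pigs ran from 7.19 to 8.12 (median 7.79), F1 TN pigs ran from 6.47 to 8.05 (median 7.35), and F1 HS pigs had 6.61, 6.86, 7.203, 7.32 and 7.72. The overlap of the breeds was as on the first probe, and LW minus CR was -0.56 ± 0.17 (adjusted p = 0.0405). Across the 33 arrays the SD of the difference between these identical probes was 0.12. With LW HS 3 taken as CR the adjusted p was 0.0711 for A_72_P544532 and 0.0691 for A_72_P414438, and with slide as a fixed block that of A_72_P414438 was 0.0528. It was also lost when any 1 of 11 arrays was left out for A_72_P544532 (LW TN 3 to 5, LW HS 4 and 5, CR TN 4 and 5, and CR HS 1, 2, 4 and 6, adjusted p up to 0.0757), and for 13 arrays with A_72_P414438 (up to 0.0853). Without LW TN 2 and CR TN 1 the difference was -0.63 (adjusted p = 0.0140).

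The other 6 IGF2 probes had negative differences that did not pass over the 33 arrays. On A_72_P376458, the brightest, LW TN pigs had 9.44, 9.50, 9.63, 10.02 and 10.75, the last of them LW TN 2, and LW HS pigs ran from 9.02 to 10.54 (median 9.69). CR TN pigs had 9.73, 9.94, 10.70, 10.72 and 10.77, CR HS pigs ran from 9.62 to 10.90 (median 10.43), F1 TN pigs ran from 8.96 to 11.03 (median 9.91), and F1 HS pigs had 9.21, 9.36, 9.48, 9.77 and 10.17. Each breed spread over more than 1 log2 unit, and the ranges overlapped widely, with a difference of -0.54 ± 0.22 (adjusted p = 0.165). On A_72_P599193 the difference was -0.47 ± 0.17 (adjusted p = 0.1002) and on O9318 it was -0.32 ± 0.13 (adjusted p = 0.147). The overlapping probes A_72_P537638 and A_72_P537644 gave -0.08 ± 0.11 and -0.11 ± 0.07 (adjusted p = 0.794 and 0.505), and A_72_P303139 gave -0.22 ± 0.10 (adjusted p = 0.241). Without LW TN 2 and CR TN 1, A_72_P599193 passed (-0.57, adjusted p = 0.0422), and with array weights it and A_72_P376458 did (-0.60 and -0.67, adjusted p = 0.0180 and 0.0466). The probes of this gene did not move as one: pairs of them correlated at r = 0.07 to 0.97 over the 33 arrays with group means removed (28 pairs, median 0.77). By temperature, the IGF2 probes differed by -0.23 to 0.02. In RefSeq's pig annotation IGF2 lies next to INS, the insulin gene.

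**Figure D2:**
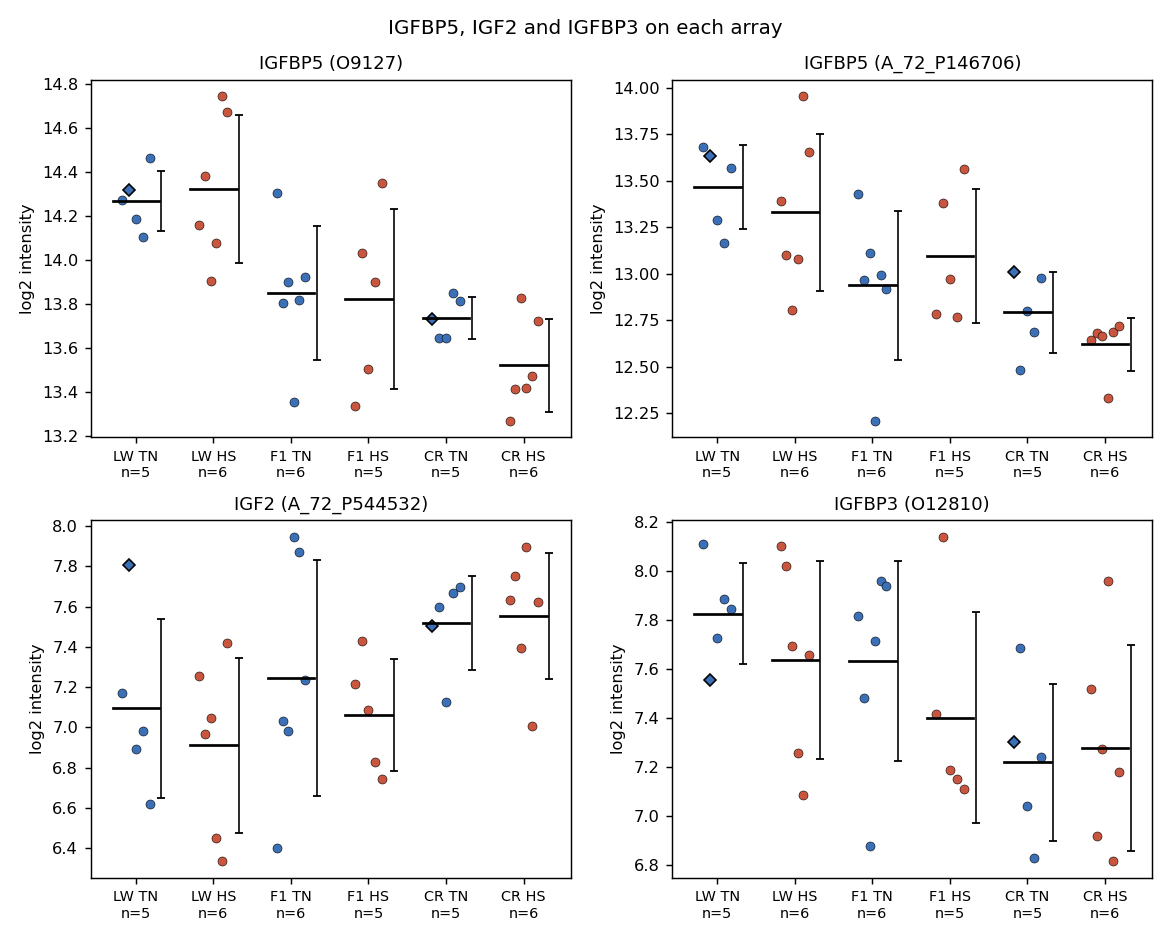
Log2 intensity on each array for 2 IGFBP5 probes, IGF2 and IGFBP3, by breed and temperature (blue TN, red HS; the horizontal bar is the group mean and the error bar its SD; diamonds are LW TN 2 and CR TN 1). In IGFBP5 O9127 all LW points, from 13.91 up, lie above all CR points, which reach 13.85; in the other panels LW and CR overlap.

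The receptor IGF1R showed no call with the processing described above. On O13126, its brightest probe, LW TN pigs had 10.48, 10.66, 10.70, 10.76 and 10.77, and LW HS pigs ran from 10.82 to 11.38 (median 10.92). All LW HS values were thus above all LW TN values. HS and TN values in LW did not overlap, in either direction, on 0.629% of kept probes, and on this probe alone among the 37. In CR and F1, 0 of the 37 had HS and TN values that did not overlap (0.608% and 0.567% of kept probes). The difference within LW was 0.35 ± 0.15 (unadjusted p = 0.0313, adjusted p = 0.714). In F1 pigs it was -0.13 ± 0.15 and in CR pigs -0.14 ± 0.15 (adjusted p = 0.924 and 0.868), and the interaction of breed and temperature had an unadjusted p of 0.0521 (adjusted p = 0.925). Without LW TN 2 and CR TN 1 the difference within CR was -0.29 ± 0.15 (unadjusted p = 0.0560, adjusted p = 0.939). That within LW was then 0.35 ± 0.15 (unadjusted p = 0.0230, adjusted p = 0.810). In CR TN pigs the values were 10.27, 10.72, 10.86, 11.17 and 11.39, a wider spread than in LW HS. CR HS pigs ran from 10.52 to 11.17 (median 10.67), F1 TN pigs from 10.68 to 11.14 (median 11.07), and F1 HS pigs had 10.49, 10.68, 11.02, 11.03 and 11.18. The other IGF1R probes, A_72_P440946 and A_72_P146851, correlated with O13126 and with each other at r = -0.21 to 0.39 with group means removed. F1 minus LW on O13126 was 0.09 (adjusted p = 0.823). On A_72_P440946, a dimmer probe with a mean of 6.65 against 10.87 for O13126, all 11 F1 arrays were above the LW mean. There F1 minus LW was 0.28 ± 0.08 (adjusted p = 0.0644). It passed with slide as a random block (0.28, adjusted p = 0.0492), processed intensity (0.41, adjusted p = 0.0398) and array weights (0.32, adjusted p = 0.00480). With array weights F1 minus the parental mean passed too (0.22, adjusted p = 0.0236).

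The receptor IGF2R was lower in F1 than in LW pigs on O10348. LW TN pigs had 12.38, 12.40, 12.47, 12.47 and 12.57, and LW HS pigs ran from 12.34 to 12.64 (median 12.49). F1 TN pigs ran from 12.0003 to 12.41 (median 12.29), and F1 HS pigs had 11.86, 11.90, 12.13, 12.44 and 12.49. The F1 values reached lower than those of LW, and the upper F1 animals overlapped with LW. The F1 minus LW difference was -0.27 ± 0.07 (adjusted p = 0.0378), with 10 of 11 F1 arrays below the LW mean. Against the parental mean F1 was also lower (-0.22 ± 0.06, adjusted p = 0.0379), a call lost with processed intensity (0.136) and slide as a fixed block (0.0501), and without any 1 of LW TN 3, F1 TN 2, F1 HS 2 or 5, CR TN 3 or CR HS 6 (up to 0.114), while CR pigs, at 12.38 ± 0.13 (SD, n = 11), did not differ from F1 past the threshold (F1 minus CR -0.17 ± 0.07, adjusted p = 0.136). The probe with the same bases, A_72_P513762, gave -0.25 ± 0.07 and -0.21 ± 0.06 for these 2 comparisons with adjusted p-values of 0.0677 and 0.0580. The other 4 IGF2R probes were much dimmer, with means of 5.85 to 6.92 against 12.36 for O10348. They differed by -0.04 to 0.01 between F1 and LW. The call against LW was lost with LW HS 3 left out (adjusted p = 0.0648) or taken as CR (0.0787), with processed intensity (0.0817) and with slide as a fixed block (0.0509), and it was also lost without any 1 of LW TN 3, LW HS 1, 2 or 5, F1 TN 2, or F1 HS 2 or 5 (adjusted p up to 0.0854). Beside this difference, 1 of 8 endothelial markers (TEK, -0.72, adjusted p = 0.0304), 1 of 10 fibroblast and pericyte markers (RGS5, -0.67, adjusted p = 0.0378) and 1 of 10 leukocyte markers (CSF1R, -0.42, adjusted p = 0.0402) were lower in F1 than in LW. Of the 8 endothelial markers, 6 had lower values in F1, with a median difference of -0.29, and 5 had an unadjusted p under 0.05 (13.7% of all kept probes did). Of the 4 somatotroph markers 0 were called, 3 had higher values in F1, and their median difference was 0.08. With group means removed, O10348 correlated with the mean level of the somatotroph list at r = 0.63 and with that of the endothelial list at r = -0.19 over 33 arrays that share slides and normalization. The part of these cells in the difference was not tested.

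Among the binding proteins, IGFBP5, which is retained in the extracellular matrix, differed most clearly between the parental breeds. On O9127, LW TN pigs had 14.11, 14.19, 14.27, 14.32 and 14.46, and LW HS pigs ran from 13.91 to 14.75 (median 14.27). CR TN pigs had 13.64, 13.64, 13.73, 13.81 and 13.85, and CR HS pigs ran from 13.27 to 13.83 (median 13.44). All 11 LW values were above all 11 CR values. The breeds did not overlap, in either direction, on 0.278% of kept probes. Between F1 and LW and between F1 and CR, 0 of the 37 probes were without overlap (0.0319% and 0.123% of kept probes). The LW minus CR difference was 0.68 ± 0.11 (1.60-fold, 95% interval of the log2 difference 0.45 to 0.91, adjusted p = 0.000137). On A_72_P146706, printed above, LW TN pigs had 13.17, 13.29, 13.57, 13.63 and 13.68, and LW HS pigs ran from 12.81 to 13.96 (median 13.25). CR TN pigs had 12.49, 12.69, 12.80, 12.98 and 13.01, and CR HS pigs ran from 12.33 to 12.72 (median 12.67). Here 1 LW value, that of LW HS 3 (12.81), lay within the CR range, and the other 10 LW values lay above all CR values. The difference was 0.69 ± 0.13 (1.62-fold, adjusted p = 0.000625), with 11 of 11 LW arrays above the CR mean. The difference of O9127 was 0.53 in TN and 0.80 in HS, and 0.45 to 1.00 within the 5 slides.

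F1 pigs lay between the parents for IGFBP5. On O9127 the means were 14.30 ± 0.25 in LW, 13.84 ± 0.34 in F1 and 13.62 ± 0.20 in CR (SD, n = 11 each). F1 was lower than LW (-0.47 ± 0.11, adjusted p = 0.0291), a call that was lost without LW HS 5 or 6, F1 TN 4 or F1 HS 1 (adjusted p up to 0.0647). It did not differ past the threshold from CR (0.21 ± 0.11, adjusted p = 0.271), with a 95% interval of -0.01 to 0.44, or from the parental mean (-0.13 ± 0.10, adjusted p = 0.554). On A_72_P146706, F1 TN pigs ran from 12.21 to 13.43 (median 12.98), F1 HS pigs had 12.77, 12.78, 12.97, 13.38 and 13.56, and F1 minus LW was -0.39 ± 0.13, which did not pass (adjusted p = 0.126). It passed with slide as a fixed block (-0.45, adjusted p = 0.0407) and with array weights (-0.47, adjusted p = 0.0159). The array LW HS 3, whose labels disagree on its breed, had the lowest LW value on both probes (13.91 and 12.81). With it left out, LW minus CR on O9127 was 0.72 (adjusted p = 9.69e-05). With it taken as CR, the difference was 0.69 (adjusted p = 0.000278). By temperature IGFBP5 differed by -0.06 ± 0.09 and -0.05 ± 0.11. Beside this breed difference, 2 of 8 endothelial markers were higher in LW (KDR and CDH5), 4 of 10 fibroblast and pericyte markers were lower and 1 was higher (COL1A1, COL1A2, COL3A1 and DCN, and RGS5), and 2 of 4 somatotroph markers were lower (GHRHR and POU1F1). Of 12 markers of other hormone cells, GNRHR (0.59) and NR5A1 (0.56) were higher in LW and TRHR (-0.48) was lower. Of the 7 blood cell markers 1 was called, higher in LW, and 6 had higher values in LW, with a median difference of 0.15. The mean level of the endothelial list ran from 10.28 to 11.83 in LW and 10.26 to 11.39 in CR, that of the fibroblast and pericyte list from 10.37 to 11.31 and 10.59 to 11.28, and that of the somatotroph list from 15.02 to 15.39 and 15.23 to 15.57. The part of these cells in the IGFBP5 difference was not tested.

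IGFBP3, the main carrier of IGFs in blood, was close to the threshold in the same direction. On O12810, LW TN pigs had 7.56, 7.73, 7.85, 7.89 and 8.11, and CR TN pigs 6.83, 7.04, 7.24, 7.30 and 7.69. LW HS pigs ran from 7.09 to 8.10 (median 7.68) and CR HS pigs from 6.81 to 7.96 (median 7.23). LW values were mostly the higher ones, with overlap in both conditions. LW minus CR was 0.47 ± 0.15 on O12810 and 0.46 ± 0.15 on A_72_P165666 (adjusted p = 0.0542 and 0.0540), with 10 of 11 LW arrays above the CR mean on each. A further probe that holds the same bases as A_72_P165666, listed on the array by an accession, gave 0.43 ± 0.14 (adjusted p = 0.0652), with 9 of 11 LW arrays above the CR mean. O12810 passed in 5 of the alternative processings listed in the closing section and in 8 of 33 fits with 1 array left out (without LW TN 2, LW HS 4 or 5, F1 TN 3, F1 HS 2, CR TN 2, or CR HS 1 or 4, adjusted p down to 0.0156). Without both LW TN 2 and CR TN 1, A_72_P165666 passed (0.50, adjusted p = 0.0487) and O12810 did not (0.49, adjusted p = 0.0625). A_72_P165666 also passed with slide as a random block (adjusted p = 0.0429) and array weights (0.0280). IGFBP3 and the liver carrier IGFBP1 are neighbouring genes in RefSeq, as are IGFBP2 and IGFBP5, and IGFBP2 did not show the breed difference of IGFBP5: its 4 probes differed by -0.16 to -0.09 between LW and CR.

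In HS against TN, 8 of the 37 probes had an unadjusted p under 0.05 (8.68% of all kept probes did, 3.93% in the lower direction), and all 8 were lower in HS: the 4 probes of IGFBP2 and 4 of the 5 labelled IGFBP7. None of them passed the adjusted threshold (smallest adjusted p = 0.167, IGFBP7 A_72_P588456). Of the 37, 29 were lower in HS, with a median of -0.10 against 0.01 over all kept probes. Without LW TN 2 and CR TN 1, 3 of the 37 had an unadjusted p under 0.05 (7.36% of all kept probes), 0 were called and the median was -0.06.

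IGFBP2, a carrier that is secreted by many epithelial and glial cells, had its highest values on those 2 arrays. On A_72_P634395, LW TN pigs had 11.84, 11.96, 12.09, 12.27 and 14.02, and CR TN pigs 11.75, 11.84, 12.06, 12.54 and 14.00. The 2 values near 14 are LW TN 2 and CR TN 1. F1 TN pigs ran from 11.64 to 12.30 (median 12.01). In HS, LW pigs ran from 11.44 to 12.15 (median 11.82), CR pigs from 11.23 to 12.53 (median 12.10), and F1 pigs had 11.25, 11.64, 11.67, 11.73 and 12.13. Apart from those 2 arrays, TN pigs ran from 11.64 to 12.54 and HS pigs from 11.23 to 12.53. HS minus TN was -0.46 ± 0.18 (adjusted p = 0.428) on 33 arrays and -0.20 ± 0.11 (adjusted p = 0.706) on 31. On the other IGFBP2 probes it was -0.43 to -0.47 and became -0.18 to -0.24.

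**Figure D3:**
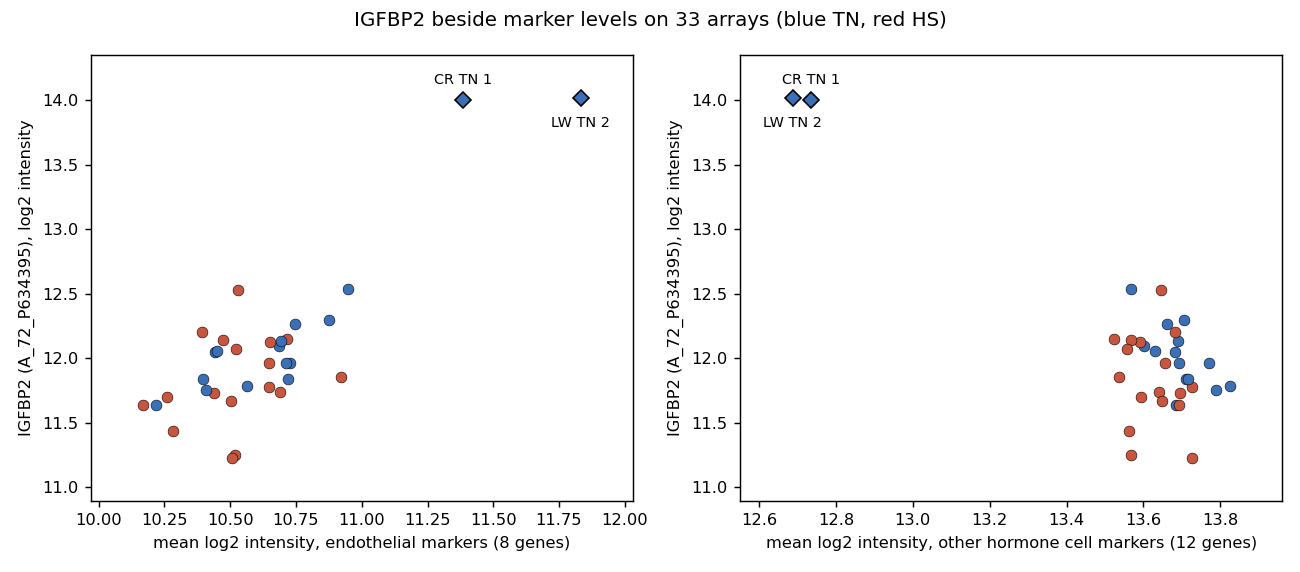
Log2 intensity of IGFBP2 (A_72_P634395) on each of 33 arrays against the mean log2 intensity of 8 endothelial markers (left) and of 12 markers of hormone cells other than somatotrophs (right); blue is TN, red is HS. LW TN 2 and CR TN 1 (diamonds, IGFBP2 at 14.02 and 14.00) lie apart from the other 31 arrays on both axes.

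IGFBP7, the weak IGF binder of the vessel wall, had the smallest p-values of the members for temperature. On A_72_P422899, LW TN pigs had 14.36, 14.47, 14.55, 14.60 and 15.14, and CR TN pigs 14.44, 14.56, 14.75, 14.83 and 15.39. The LW HS range was 14.04 to 14.55 (median 14.24) and the CR HS range 14.33 to 14.73 (median 14.45). F1 TN pigs ran from 14.30 to 14.68 (median 14.40), and F1 HS pigs had 13.96, 14.17, 14.27, 14.43 and 14.68. HS values were lower on the whole, with 16 of 17 under the mean of TN pigs of the same breed. In LW and CR that mean includes LW TN 2 (15.14) and CR TN 1 (15.39), which raise it. The difference was -0.27 ± 0.08 (adjusted p = 0.261), and -0.34, -0.30 and -0.15 within LW, CR and F1 (adjusted p = 0.706, 0.830 and 0.908). Without the 2 arrays it was -0.17 ± 0.07 (unadjusted p = 0.0138, adjusted p = 0.525). With slide as a fixed block it passed, at -0.30 (adjusted p = 0.0492). The probes A_72_P588456, A_72_P680993 and O10536 differed by -0.28, -0.24 and -0.19, whereas the IGFBP7/POLR2B probe differed by -0.02 ± 0.04 (adjusted p = 0.938).

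Markers of vessels and connective tissue also had lower values in HS, as did IGFBP2 and IGFBP7, without passing the test. This held for all 8 endothelial markers and all 10 fibroblast and pericyte markers, with median differences of -0.22 and -0.31, and 0 of them passed the adjusted test (smallest adjusted p = 0.272 and 0.169). Over all kept probes the median was 0.01. The list medians include LW TN 2 and CR TN 1, which had the highest levels of both lists, and were not taken again without them. Within F1, which holds neither array, 7 of 8 and all 10 were lower in HS, with medians of -0.12 and -0.14. The mean level of the endothelial list ran from 10.22 to 11.83 in TN (to 10.95 without LW TN 2 and CR TN 1) and 10.17 to 10.92 in HS. That of the fibroblast and pericyte list ran from 10.63 to 11.31 in TN (to 11.09 without them) and 10.37 to 10.995 in HS. Of the 7 kept blood cell markers, all had lower values in HS and HBB, a haemoglobin gene, passed (-1.15, adjusted p = 0.0307). With group means removed, IGFBP2 correlated with the endothelial list at r = 0.84 over 33 arrays and 0.54 over 31, and IGFBP7 A_72_P422899 at r = 0.72 and 0.43. With the folliculostellate and stem cell list, r was 0.72 and 0.33 for IGFBP2 and 0.74 and 0.51 for IGFBP7. With the list for other hormone cells it was -0.86 and -0.35 for IGFBP2 and -0.61 and 0.19 for IGFBP7. These arrays share slides and normalization, and the part of those cells in the temperature differences was not tested.

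**Figure D4:**
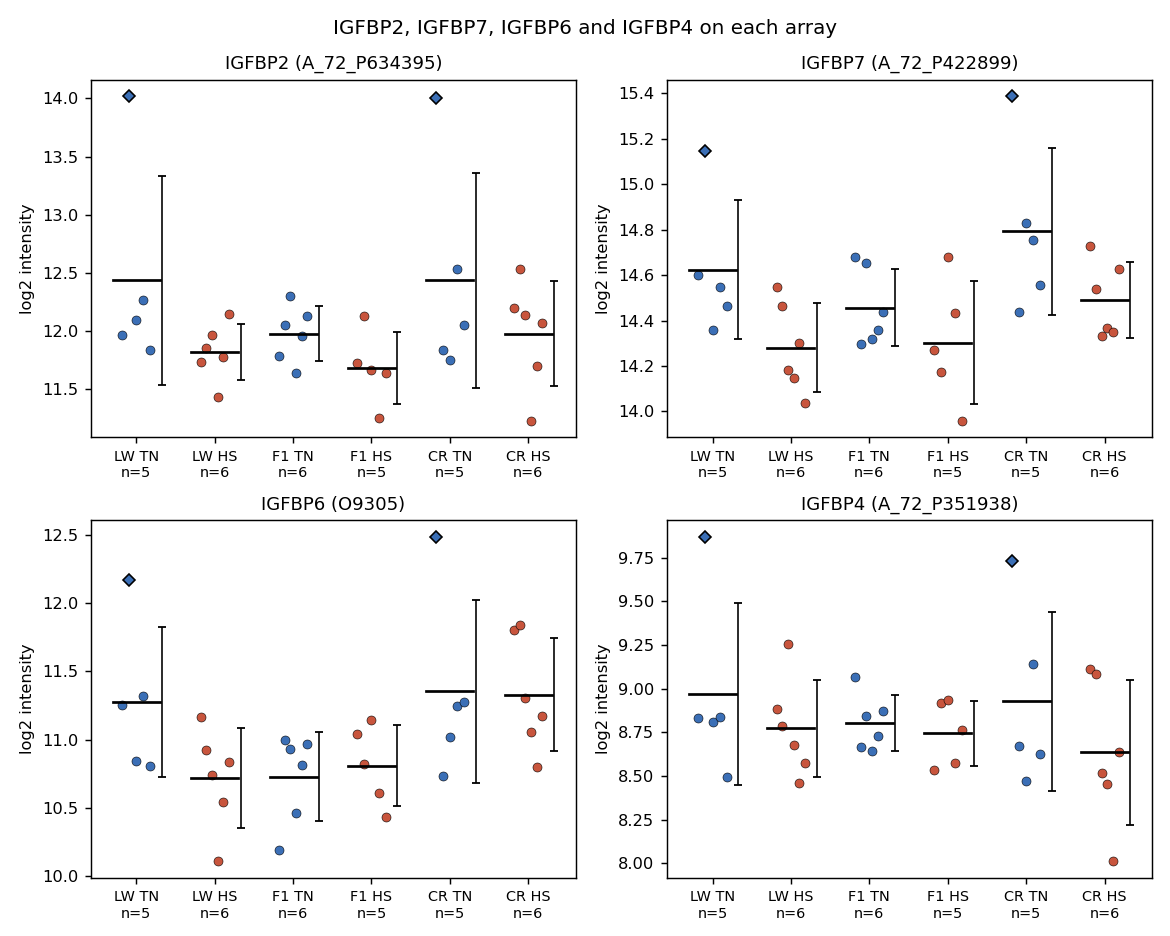
Log2 intensity on each array for IGFBP2, IGFBP7, IGFBP6 and IGFBP4 by breed and temperature (blue TN, red HS; the horizontal bar is the group mean and the error bar its SD). The diamonds, LW TN 2 and CR TN 1, are the highest points of each panel, at 14.02 and 14.00 for IGFBP2 and 9.87 and 9.73 for IGFBP4.

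IGFBP6, which prefers IGF2 over IGF1, was lower in F1 than in CR pigs on O9305. F1 TN pigs ran from 10.19 to 10.99 (median 10.87), and F1 HS pigs had 10.43, 10.61, 10.82, 11.04 and 11.14. CR TN pigs had 10.73, 11.02, 11.25, 11.28 and 12.49, and CR HS pigs ran from 10.80 to 11.84 (median 11.24). All 11 F1 values were below the CR mean, with overlap at the lower end of CR. LW TN pigs had 10.80, 10.85, 11.25, 11.32 and 12.17, the last of them LW TN 2, and LW HS pigs ran from 10.11 to 11.17 (median 10.79). F1 minus LW was -0.22 (adjusted p = 0.671), at -0.55 in TN and 0.09 in HS. Without LW TN 2 and CR TN 1 it was -0.09 (adjusted p = 0.840). F1 minus CR was -0.59 ± 0.19 (adjusted p = 0.0482), and -0.35 to -0.49 on the other 3 IGFBP6 probes (adjusted p = 0.0719 to 0.137). On the brightest of these, A_72_P088481, F1 TN pigs ran from 11.93 to 12.82 (median 12.60) and F1 HS pigs had 12.41, 12.52, 12.71, 12.74 and 12.74. CR TN pigs had 12.51, 12.60, 12.95, 13.05 and 14.23, and CR HS pigs ran from 12.44 to 13.43 (median 12.83). LW TN pigs had 12.54, 12.78, 12.83, 13.12 and 14.23, and LW HS pigs ran from 12.35 to 12.90 (median 12.66). The 2 values of 14.23 are LW TN 2 and CR TN 1, and the other values of the 3 breeds overlapped. F1 minus CR on this probe was -0.45 ± 0.18 (adjusted p = 0.137). On O9305, without LW TN 2 and CR TN 1, it was -0.46 ± 0.15 with an adjusted p of 0.0522, and leaving out any 1 of 26 of the 33 arrays took it past the threshold (adjusted p up to 0.101). The call on O9305 was also lost with processed intensity, without the filter, and with LW HS 3 left out or taken as CR (adjusted p up to 0.0789). Of 10 fibroblast and pericyte markers, 4 were lower in F1 than in CR (ACTA2, COL1A2, COL3A1 and DCN), as were 2 of 9 folliculostellate and stem cell markers (ANXA1 and S100B) and 1 of 10 leukocyte markers (CSF1R). Of 8 endothelial markers KDR was higher in F1 (0.59, adjusted p = 0.00980) and TEK was lower (-0.75, adjusted p = 0.00827). Of 12 markers of other hormone cells GNRHR (0.64, adjusted p = 0.00841) and NR5A1 (0.46, adjusted p = 0.0472) were higher, as was 1 of 7 blood cell markers. The part of these cells in this difference was not tested. By temperature the 4 probes differed by -0.18 to -0.09, and without the 2 arrays by -0.02 to 0.03.

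The IGFBP7/POLR2B probe was the other call between F1 and CR. Its values were 12.05 to 12.24 in F1 TN (median 12.15), 11.82, 11.95, 12.09, 12.26 and 12.27 in F1 HS, 12.25, 12.28, 12.29, 12.30 and 12.37 in CR TN, and 12.18 to 12.37 in CR HS (median 12.30). Low F1 values stood out from a narrow CR range. F1 minus CR was -0.18 ± 0.05 (adjusted p = 0.0139) and F1 minus the parental mean -0.16 ± 0.04 (adjusted p = 0.0217), the latter lost without F1 HS 2 or F1 HS 5 (adjusted p up to 0.0696). Both calls were lost with processed intensity (-0.16 and -0.15, adjusted p = 0.121 and 0.129). The copy named POLR2B gave -0.15 ± 0.05 and -0.16 ± 0.05 (adjusted p = 0.0870 and 0.0654). With group means removed, the IGFBP7/POLR2B probe correlated at r = 0.29 to 0.44 with the other probes labelled IGFBP7. Those correlated at r = 0.65 to 0.93 with each other. Which gene the IGFBP7/POLR2B probe reads was not tested. The other IGFBP7 probes differed by -0.28 to -0.07 between F1 and CR, and none passed with the processing described above. With array weights A_72_P588456 passed (-0.25, adjusted p = 0.0399). With slide as a fixed or random block it and A_72_P422899 passed (adjusted p = 0.0175 to 0.0485).

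IGFBP4, a carrier that mostly holds IGFs away from the receptor and is cut by the protease PAPPA, showed no call. On A_72_P351938, LW TN pigs had 8.50, 8.81, 8.83, 8.84 and 9.87, and CR TN pigs 8.47, 8.62, 8.67, 9.14 and 9.73, where the highest value of each is again LW TN 2 or CR TN 1. LW HS pigs ran from 8.46 to 9.25 and CR HS pigs from 8.01 to 9.11. HS minus TN was -0.18 ± 0.12 (adjusted p = 0.704) and -0.04 on 31 arrays.

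**Figure D5:**
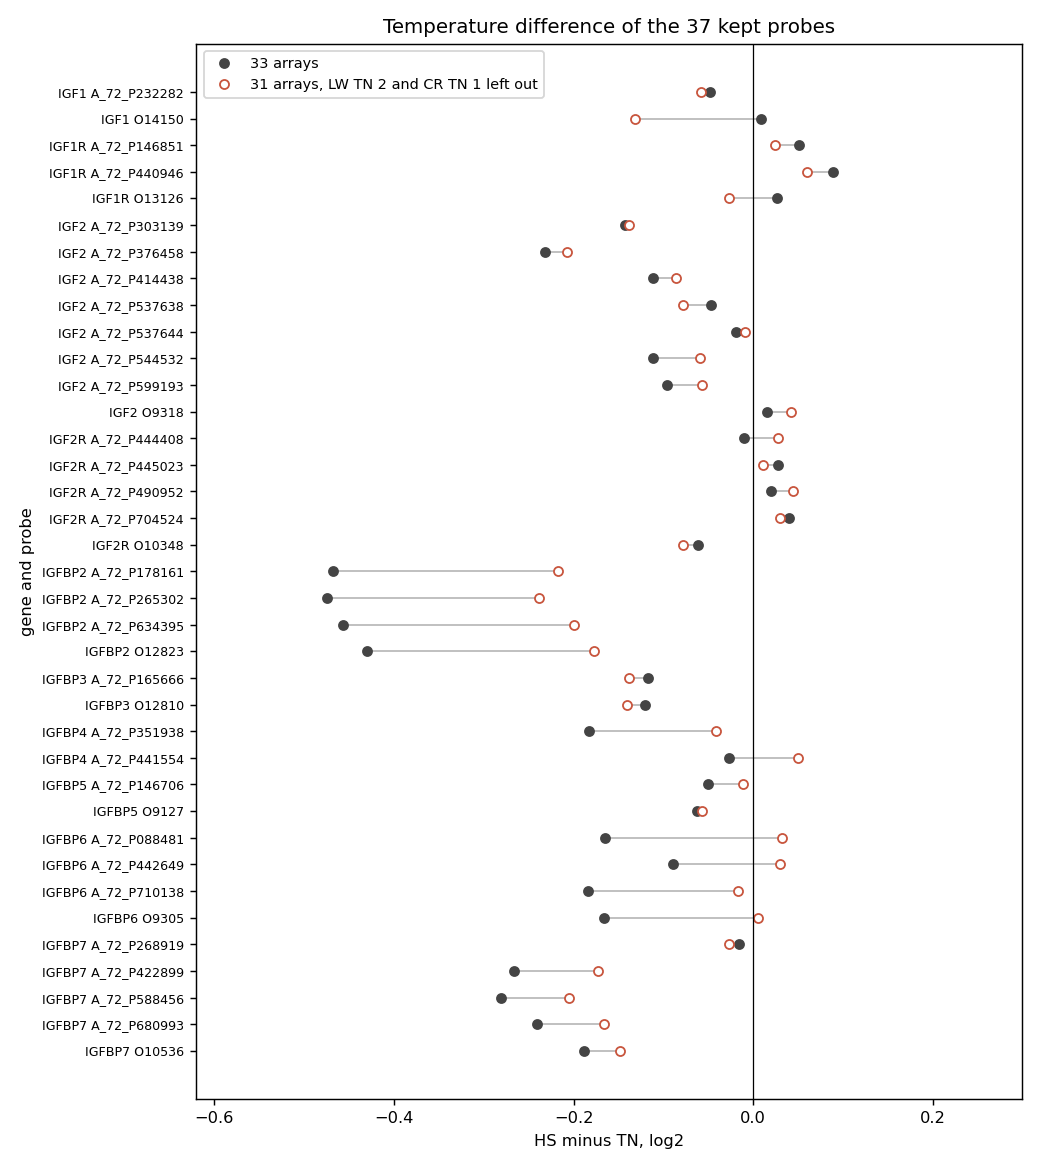
HS minus TN on the log2 scale for each of the 37 kept probes (gene and probe on the vertical axis), over all 33 arrays (filled) and over 31 arrays without LW TN 2 and CR TN 1 (open). IGFBP2 moves from between -0.47 and -0.43 to between -0.24 and -0.18, and IGFBP6 moves close to 0; 0 of the 37 passed the adjusted threshold in either set.

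Within each breed, HS against TN called 0 of the 37 probes in LW, CR and F1 (0% of all kept probes in each), with 9, 4 and 1 at an unadjusted p under 0.05 (6.76%, 5.88% and 5.71% of all kept probes). Without LW TN 2 and CR TN 1 these counts were 5, 2 and 2 (5.88%, 5.07% and 6.76% of all kept probes), and in LW 1 of the 5 was lower in HS, against 7 of the 9 over all arrays. The interaction of breed and temperature called 0 of 37 (0% of all kept probes), with 3 at an unadjusted p under 0.05 (4.29%), all of IGF2R: A_72_P490952 and A_72_P445023, which share 28 bases, and A_72_P444408. These are dim probes, with means of 5.85 to 6.53 against 12.36 for O10348. Without LW TN 2 and CR TN 1 the interaction had 5 of the 37 at that level (4.81% of all kept probes), and 0 were called.

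The genes around the family were read on the brightest kept probe of each gene, from 4 lists that held 75 genes, of which 63 were kept. In LW against CR, 3 were higher and 6 lower, 9 of 63 where 6.53% of all kept probes were called. Of the 13 kept genes of growth hormone signalling, 4 were lower in LW: GHRHR, the receptor for growth hormone releasing hormone (-0.40 ± 0.10, adjusted p = 0.0121), GHR, the growth hormone receptor (-0.30 ± 0.08, adjusted p = 0.0121), GHSR, the ghrelin receptor (-0.32 ± 0.09, adjusted p = 0.0235), and PTPN1, a phosphatase of insulin and cytokine receptors (-0.57 ± 0.14, adjusted p = 0.0104). GH1 itself gave -0.07 ± 0.04 (adjusted p = 0.328). Of the 30 kept genes of insulin and IGF receptor signalling, 2 were higher in LW: the receptor adaptors GRB10 (0.71 ± 0.13, adjusted p = 0.000723) and GRB14 (0.28 ± 0.09, adjusted p = 0.0452). Of the 13 kept carriers and proteases, the lysosomal protease CTSD was higher (0.37 ± 0.07, adjusted p = 0.000491), and MMP2 and ADAMTS1, which cut matrix proteins, were lower (-0.41 ± 0.09 and -0.62 ± 0.15, adjusted p = 0.00283 and 0.0104). Of the 7 kept genes of the IGF2 locus and IGF2 mRNA binding, 0 passed (2 at an unadjusted p under 0.05). Beside these differences, all 4 somatotroph markers, which include GHRHR, had lower values in LW (2 called, median -0.20). Of the 10 fibroblast and pericyte markers, 4 were called lower and 1 higher in LW. The part of these cells in the differences was not tested.

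In F1 against CR, 5 of the 63 were higher and 1 lower, where 6.66% of all kept probes were called. Among the higher ones, GRB10, GRB14, CTSD and RICTOR, a subunit of the mTOR complex that acts on AKT, differed by 0.27 to 0.52, and ADAMTS1 was lower (-0.68 ± 0.15, adjusted p = 0.00667). In F1 against LW, 1 of 63 passed (1.43% of all kept probes), GHSR, which was higher (0.36 ± 0.09, adjusted p = 0.0391). Against the parental mean 1 of 63 was higher and 1 lower (2.75% of all kept probes), and the lower one was PLAU, the urokinase (-0.38 ± 0.10, adjusted p = 0.0368). In HS against TN, 0 of 63 passed, and 5 had an unadjusted p under 0.05 (8.68% of all kept probes), among them SOCS3, an inhibitor of cytokine and growth hormone signalling (-0.43, adjusted p = 0.252), and PLAU (-0.33, adjusted p = 0.226).

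For the probe with the smallest adjusted p of each gene with a call, the 3 other genes whose values followed it most closely over the 33 arrays, with group means removed, were looked up among 10421 genes, and r was then taken again over the 31 arrays without LW TN 2 and CR TN 1. For IGFBP5 O9127 they were CCL28 (r = 0.70, and 0.70 over 31 arrays), KAT2B (0.67 and 0.68) and WDFY4 (0.65 and 0.70). For IGF2 A_72_P544532 they were CDHR1 (0.68 and 0.73), NDUFS5 (0.67 and 0.64) and ZNF697 (0.65 and 0.65). For IGF2R O10348 they were ARHGAP6 (0.70 and 0.67), GRB7 (0.67 and 0.65) and RPAP1 (0.65 and 0.66). For IGFBP6 O9305 they were TMSB4X (0.90 and 0.80), EMP3 (0.88 and 0.77) and NDUFA4 (0.88 and 0.77). For the IGFBP7/POLR2B probe they were GPX4 (0.86 and 0.86), IMMT (0.85 and 0.86) and NAP1L4 (0.85 and 0.84). The values for IGFBP6 were lower over the 31 arrays, and these arrays share slides and normalization.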

How the data were processed

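Pituitary RNA (anterior lobe, by the study's methods) of 33 pigs was hybridised to Agilent pig arrays, 1 array per animal on 5 slides scanned on 1 day. The authors deposited scanner output per array, read with Agilent Feature Extraction 10.10.1.1 per the labels, as intensity values. Their own table of log2 normalized values was also deposited (45667 probes, 38 of them members), and its direction and scale were checked against the arrays: the median absolute difference over 45554 shared probes was 0.00376. The median signal was quantile-normalized, which removes any shift common to all probes of an array, and then transformed to log2, as in the study's methods. Using it without background correction was a choice made here. Spots of a probe were averaged.

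Of 60305 probes, 47083 were kept, those marked as well above background in 75% or more of the arrays of 1 or more groups. These marks, 0 or 1 scores per spot, were set by the scanner software and deposited by the authors in the same files. Models were fitted with limma 3.58.1 (R 4.3.3) on all 33 arrays: breed plus temperature for the main comparisons, and 6 group means for temperature within a breed and the interaction. The Benjamini-Hochberg adjustment ran over all kept probes (threshold 0.05), and ± after a difference is its standard error. The study's random terms (pen, slaughter day, father and mother) are not in the labels used here, so related animals count as independent. Groups follow the titles, and replicate numbers only name arrays. The script was tested on simulated data.

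Members and gene lists were chosen with earlier results of these data known. Values by group were given for the brightest probe of each gene and for each called member, though not for all 6 groups on every such probe. Per gene with a call, the 3 most similar genes were named. The IGF1R pattern in LW and other single probes were taken up after their values were seen. Alternatives were processed intensity scaled to the 75th percentile, normexp correction, the authors' deposited table, no filter, a filter on all arrays, slide as a fixed or random block, array weights, LW HS 3 left out or taken as CR, and each array left out. Leaving out LW TN 2 and CR TN 1 was chosen after seeing the data. Gene names are the array's own, with neighbours from RefSeq's Sscrofa11.1 annotation. The number of arrays limits the precision. The values of 2 listed genes are not reported here.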

Additional observations from a re-analysis of the deposited data

Results flagged for a closer look

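Among 90 groups of 5 or 6 arrays examined, 5 held 1 array whose gap to the nearest other exceeded Dixon's 95% critical value, and chance gives about 1 in 20. IGF1 (O14150) was 9.98 on F1 TN 1, where the other F1 TN arrays had 10.60 to 10.90. The same probe was 9.87 on CR TN 1, against 10.82 to 11.07 on the other CR TN arrays. IGFBP2 (A_72_P634395) was 14.02 on LW TN 2, with 11.84 to 12.27 in the remaining LW TN pigs. IGFBP4 (A_72_P351938) was 9.87 on LW TN 2, against 8.50 to 8.84. IGFBP5 (A_72_P146706) was 12.33 on CR HS 4, against 12.64 to 12.72 on the other CR HS arrays.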

How the results depend on the processing

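The number of member probes called depended on the processing, always out of 37. For HS against TN it was 0, and 1 with slide as a fixed block. For LW against CR it was 4, but 8 with array weights, 2 with LW HS 3 taken as Creole, 6 with slide as a random block or without LW TN 2 and CR TN 1, and 4 or 5 in the other settings. For F1 against LW it was 2, but 5 with array weights, 3 with slide as a random block and 1 with LW HS 3 taken as Creole or left out. For F1 against CR it was 2, but 7 with slide as a fixed block, 6 with slide as a random block, 4 with array weights, 0 with processed intensity, and 1 without the filter, with LW HS 3 taken as Creole or left out, or without LW TN 2 and CR TN 1. For F1 against the parental mean it was 2, but 0 with processed intensity and 3 with array weights. With 1 array left out at a time the counts were 0 to 0, 2 to 7, 0 to 3, 1 to 5 and 0 to 2 in that order, and 0 within each breed and for the interaction. The cause was not tested. The call of IGFBP5 between LW and CR was kept on both probes in all these settings. Differences near 0 reversed: IGF1 O14150 for temperature was -0.10 with array weights, -0.012 with LW HS 3 taken as Creole, -0.0072 with it left out, -0.13 without LW TN 2 and CR TN 1, and -0.061 to 0.067 with 1 array left out. IGF1R O13126 for temperature was -0.027 without LW TN 2 and CR TN 1 and -0.013 to 0.072 with 1 array left out, and between LW and CR it was -0.023 with array weights and -0.012 with LW HS 3 taken as Creole. Between LW and CR, IGFBP4 A_72_P351938 was -0.0011 with LW HS 3 taken as Creole and -0.00086 to 0.18 with 1 array left out, and IGFBP2 A_72_P634395 was -0.26 to 0.076 with 1 array left out. IGFBP6 A_72_P088481 for temperature was 0.032 without LW TN 2 and CR TN 1. IGFBP3 O12810 passed between LW and CR with processed intensity, normexp, slide as a fixed or random block, and array weights (adjusted p 0.0300 to 0.0490). No paired analysis was possible because the labels give no pairing of animals across groups.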
